A study of Mus musculus with 23 samples.

Results

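Efferocytosis is the uptake of dying cells by phagocytes. The 8 genes described here, Axl, Mertk, Tyro3, Gas6, Pros1, Timd4, Mfge8 and Stab1, encode receptors and bridging proteins of this process. They were chosen by name, with earlier results of these data known. They are 8 of the 47729 gene entries of the count table, each matched by its Ensembl identifier. RNA was sequenced from macrophages and monocytes sorted from the subcutaneous tissue of wild-type C57BL/6J mice, with or without a subcutaneous poly(ethylene glycol) (PEG) hydrogel implant, a synthetic, water-swollen polymer network that provokes a foreign body response. The series' design note gives macrophages as Cx3cr1-positive and Ly6C-low and monocytes as Cx3cr1-positive and Ly6C-high. Implant groups were sampled at days 2, 14 and 28, and control mice had no treatment. Macrophages had 3 libraries at each of the 3 days and 2 in controls, and monocytes had 3 in every group, which makes 23 libraries in 8 groups. All groups share the strain and tissue, and the labels give no age. Per the labels' protocols, the tissue was digested together with the hydrogel, so a library cannot be assigned to the surface of the material. The libraries are labelled as biological replicates. Whether each came from its own mouse is not stated, and if they were not, p-values measure a spread that is partly technical.

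Dying cells display phosphatidylserine on their surface, and phagocytes recognise it directly or through soluble bridging proteins. AXL, MERTK and TYRO3 are the TAM receptor tyrosine kinases, and they bind phosphatidylserine through the bridging proteins GAS6 and protein S, the product of Pros1. MERTK is the main TAM receptor for uptake in many resident macrophages, and AXL is known as a receptor of inflamed settings with a strong preference for GAS6. TIM-4, the product of Timd4, binds phosphatidylserine directly and marks long-lived resident macrophages. MFG-E8 bridges phosphatidylserine to integrins of the alpha-v family. Stabilin-1, the product of Stab1, is a scavenger receptor that also binds phosphatidylserine.

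Library totals ran from 9303153 to 32994092 counts (median 24722229). CPM values (counts relative to library size) use library totals corrected for composition by TMM factors, so that 3 counts correspond to between 0.0654 and 0.362 CPM, and RPKM divides the CPM by exon length in kilobases. Of the sort markers, Ly6c2, which encodes part of the Ly6C antigen, lay between 5.49 and 236 CPM in all macrophage libraries and between 836 and 3586 CPM in all monocyte libraries. Cx3cr1 lay between 25.6 and 226 CPM in implant macrophages, against 57.6 to 136 CPM in control macrophages, and between 54.7 and 189 CPM in implant monocytes, against 437 to 556 CPM in control monocytes. The macrophage gene Adgre1 (F4/80) lay between 458 and 945 CPM in macrophages and between 223 and 721 CPM in monocytes. Libraries also held transcripts of other cell types, and these moved with the groups. The summed level of 10 neutrophil genes was 3039 to 6652 CPM in day 2 macrophages, against 3.33 to 11.5 CPM in control macrophages, where Ly6g and Elane were at 0. In monocytes the same sum was 2341 to 3926 CPM in controls, 2074 to 5007 CPM at day 2, 233 to 802 CPM at day 14 and 287 to 438 CPM at day 28. Control monocytes stood apart in Ngp, Ltf, Camp and Elane, with means of 1108, 379, 319 and 43.1 CPM. In every other group the means of these genes were at most 10.7 CPM. The other genes of the sum were not highest in control monocytes. All monocyte comparisons with controls and all interactions rest on this group, and what sets it apart was not tested. The summed level of 8 fibroblast genes was 194 to 263 CPM in control macrophages and 5.97 to 115 CPM in implant macrophages. In monocytes it was 0.133 to 1.02 CPM in controls, with Col1a1, Lum, Pdgfra and Dpt at 0, and it was 12.7 to 135 CPM at day 2, 626 to 1139 CPM at day 14 and 277 to 683 CPM at day 28. In RNA from sorted populations, a change in the share of cells that carry a transcript and a change in the amount per cell cannot be told apart.

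Per length, the members differed widely in level. In control macrophages the mean level was 322 RPKM for Gas6, 74.2 RPKM for Stab1, 68.3 RPKM for Pros1, 40.3 RPKM for Timd4, 33 RPKM for Axl, 21.7 RPKM for Mertk and 1.67 RPKM for Mfge8. At day 28 the macrophage order was different, with Axl at 75.5 RPKM, Pros1 at 39.0 RPKM, Mertk at 21.4 RPKM, Mfge8 at 18.1 RPKM, Stab1 at 12.1 RPKM, Gas6 at 11.5 RPKM and Timd4 at 0.482 RPKM. Control monocytes carried Pros1 at 21.6 RPKM, Axl at 17.8 RPKM and Mfge8 at 5.13 RPKM, and no other member exceeded 0.126 RPKM there. Tyro3 was all but undetected, with 3 counts over all 23 libraries, 1 in a control monocyte library and 2 in a day 28 monocyte library. It did not pass the count filter, so 7 of the 8 members were tested.

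**Figure D1:**
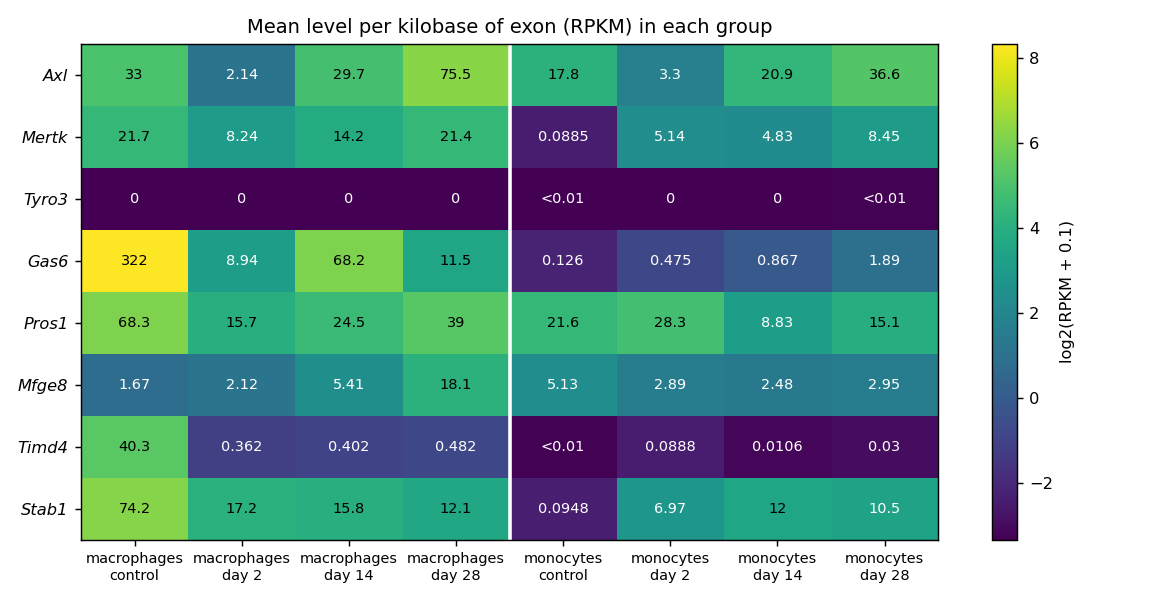
Mean RPKM of each member (rows) in the 8 groups (columns, macrophages left of the white line and monocytes right of it). Colour is log2(RPKM + 0.1) and the printed values are RPKM. Gas6 is brightest in control macrophages (322 RPKM), and Mertk, Gas6, Timd4 and Stab1 are all below 0.13 RPKM in control monocytes.

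The genes lie on 6 chromosomes of GRCm38, with gene bounds from GENCODE M21. Tyro3 (2:119797733-119818104) and Mertk (2:128698956-128802894), both on the plus strand, share chromosome 2, and Axl (7:25757273-25788705) and Mfge8 (7:79133768-79149060), both on the minus strand, share chromosome 7. Gas6 lies at 8:13465374-13494490 and Stab1 at 14:31139013-31168641 on the minus strand, and Timd4 at 11:46810800-46844332 and Pros1 at 16:62854307-62929346 on the plus strand. No strand setting is stated for the authors' counting, so reads of overlapping genes on opposite strands cannot be told apart. Exons of Stab1 overlap those of Nt5dc2, which had 9870 counts over all libraries against 82785 for Stab1. Exons of Gas6 overlap those of Tmem255b, which had 46 counts against 66980 for Gas6. An antisense gene, Gm14011, lies within Mertk and had 64 counts with no exon overlap, against 22241 for Mertk.

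The 250 bases before the annotated start are shown for 4 members on which the results turn: the paralogous receptors Axl and Mertk, the bridging ligand Gas6, and Stab1, which rose together with Mertk in implant monocytes. The sequences are RefSeq's on GRCm38.p6, written 5′ to 3′ on the strand of the gene. All 8 members were matched in that table. Capitals mark matches, on either strand, to any of 6 short motifs. These are AP-1 (TGANTCA), the PU.1 core (GAGGAA), the Sp1 GC box (GGGCGG) and the hypoxia response core (ACGTG). The nuclear receptor core (AGGTCA), a single site, and the TATA box (TATAAA) complete the list. The Axl window is chr7:25788734-25788983, the Mertk window chr2:128698665-128698914, the Gas6 window chr8:13494536-13494785 and the Stab1 window chr14:31168642-31168891.
Axl: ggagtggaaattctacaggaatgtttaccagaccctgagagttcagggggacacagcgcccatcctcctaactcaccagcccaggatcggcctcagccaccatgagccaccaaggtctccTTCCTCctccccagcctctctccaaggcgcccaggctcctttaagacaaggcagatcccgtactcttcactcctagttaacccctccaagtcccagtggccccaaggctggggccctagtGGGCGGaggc
Mertk: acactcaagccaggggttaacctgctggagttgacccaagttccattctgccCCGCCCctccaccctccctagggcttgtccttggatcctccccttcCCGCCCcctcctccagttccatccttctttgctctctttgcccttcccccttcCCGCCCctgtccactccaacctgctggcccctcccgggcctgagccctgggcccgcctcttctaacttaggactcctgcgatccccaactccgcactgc
Gas6: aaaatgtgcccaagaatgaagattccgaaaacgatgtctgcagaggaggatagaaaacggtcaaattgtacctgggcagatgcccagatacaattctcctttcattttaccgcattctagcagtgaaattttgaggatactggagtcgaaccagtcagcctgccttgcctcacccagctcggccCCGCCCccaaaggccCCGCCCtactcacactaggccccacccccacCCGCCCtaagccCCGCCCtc
Stab1: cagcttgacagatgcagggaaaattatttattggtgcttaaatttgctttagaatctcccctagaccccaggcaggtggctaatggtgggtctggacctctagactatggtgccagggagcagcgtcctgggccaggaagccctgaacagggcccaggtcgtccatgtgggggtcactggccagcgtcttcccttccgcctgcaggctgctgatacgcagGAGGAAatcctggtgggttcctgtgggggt
The Mertk window holds 3 Sp1 GC boxes and the Gas6 window 4, all on the strand opposite to the gene. The Axl window holds 1 Sp1 GC box, 10 bases before the start, and 1 PU.1 core on the opposite strand. The Stab1 window has no Sp1 GC box and holds 1 PU.1 core. Over the 32851 promoter windows of the same length, 32.7% hold the Sp1 GC box, 23.3% the PU.1 core and 16.6% the hypoxia core. The nuclear receptor core is in 14.0% of them, the TATA box in 12.4% and the AP-1 motif in 6.75%. These matches describe letters in the windows only.

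In implant macrophages Axl, Gas6, Pros1, Timd4 and Stab1 fell at day 2 against controls, Timd4 and Stab1 stayed lower at days 14 and 28, Gas6 was again lower at day 28, and Mfge8 was the member called higher, at day 28. In monocytes Mertk and Stab1, nearly silent in controls, rose at all 3 days. A call means an adjusted p under 0.05 in edgeR's quasi-likelihood test (Benjamini-Hochberg, over all 16260 tested genes), and log2 fold changes (± SE) are given throughout. In macrophages 5 of the 7 tested members were called at day 2 against controls, all lower, where 17.2% of all genes were called. At day 14 it was 2 of 7, both lower, against 8.21% of all genes, and at day 28 it was 4 of 7, with 3 lower, against 10.6%. In monocytes 3 of 7 were called at day 2, with 2 higher (27.0% of all genes), 4 of 7 at day 14, with 3 higher (37.7%), and 3 of 7 at day 28, all higher (18.2%). The 3 comparisons of a cell type share their control libraries.

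**Figure D2:**
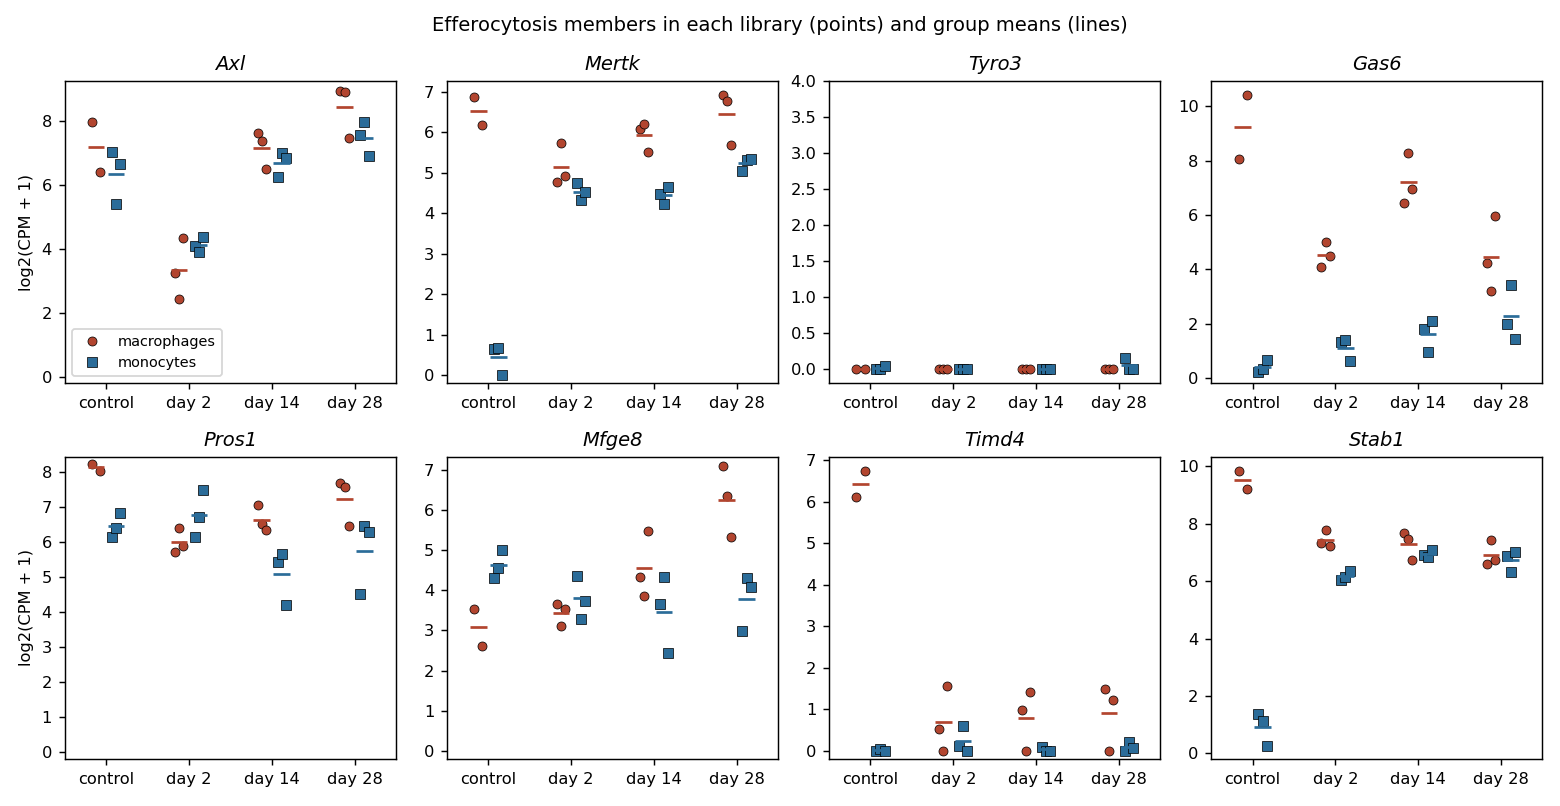
Level of each member as log2(CPM + 1) (vertical axis) by time (horizontal axis), 1 point per library, macrophages as red circles and monocytes as blue squares, with lines at group means. Axl dips at day 2 in both cell types (4.40 to 19.3 CPM in macrophages, 13.9 to 19.7 CPM in monocytes), and in monocytes Mertk and Stab1 are near 0 in controls only.

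Axl was at its lowest at day 2 in both cell types and recovered later. Macrophages had 248 and 84.4 CPM in controls, 8.57, 4.40 and 19.3 CPM at day 2, 195, 164 and 89.0 CPM at day 14, and 484, 479 and 177 CPM at day 28. Monocytes had 128, 41.5 and 98.8 CPM in controls, 16.2, 13.9 and 19.7 CPM at day 2, 75.1, 127 and 114 CPM at day 14, and 187, 247 and 119 CPM at day 28. No day 2 library of either cell type reached the lowest control library of its cell type, while day 14 and day 28 libraries overlapped the controls in range. Axl fell at day 2 against controls in both, with a log2 fold change of −3.97 ± 0.61 in macrophages (adjusted p = 0.000146) and −2.43 ± 0.54 in monocytes (adjusted p = 0.00269). The difference between these falls was not past the threshold (adjusted p = 0.361). Against day 2, Axl was higher at day 14 by 3.82 ± 0.58 in macrophages (adjusted p = 0.00201) and by 2.66 ± 0.55 in monocytes (adjusted p = 0.0281). Between day 28 and day 2 it was higher by 5.17 ± 0.62 in macrophages (adjusted p = 0.000143) and by 3.47 ± 0.57 in monocytes (adjusted p = 0.0061). The day 28 levels against controls, 380 CPM against 166 CPM in macrophages and 184 CPM against 89.5 CPM in monocytes, were not called (adjusted p = 0.226 and 0.17). The neutrophil sum was higher at day 2 in macrophages, 3039 to 6652 CPM against 3.33 to 11.5 CPM in controls, with 8 of the 10 genes above both controls in every day 2 library. In monocytes that sum overlapped between day 2 and controls (2074 to 5007 against 2341 to 3926 CPM), but its genes moved apart. In day 2 monocytes 6 of the 10 were above all controls, among them Retnlg (208 against 0.911 CPM) and S100a8 (1499 against 603 CPM), and 4 were below, among them Camp (0.293 against 319 CPM). The part of these transcripts in the Axl results of both cell types was not tested. The share of all genes that lay beyond the controls was not counted, so these marker counts only describe the list. Leaving out 1 library kept the macrophage call at day 2 and moved its log2 fold change to −3.07 without control replicate A, −4.58 without control replicate B and −4.77 without day 2 replicate C. The monocyte call at day 14 against day 2 was lost without any of the 3 day 2 libraries or without day 14 replicate C (adjusted p between 0.0658 and 0.139). In the order of the 8 group means, day 28 macrophages came highest, followed by day 28 monocytes, control macrophages, day 14 macrophages, day 14 monocytes, control monocytes, day 2 monocytes and day 2 macrophages. Neighbours in this order overlapped, except control and day 2 monocytes.

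Mertk rose in implant monocytes, and in macrophages the edgeR fit over all 8 groups called it in no comparison over time. Macrophages had 117 and 71.2 CPM in controls, 26.3, 51.8 and 29.1 CPM at day 2, 67.0, 73.2 and 44.5 CPM at day 14, and 119.9, 109 and 50.1 CPM at day 28. Day 2 was the only day on which every macrophage library lay below both controls, and the difference was not called (log2 fold change −1.39 ± 0.57, adjusted p = 0.0967). It was called in 4 of 12 alternatives (adjusted p from 0.00529 to 0.418 over all 12), which were voom, DESeq2, no filter on low counts and the fit to those 2 groups alone. Mertk at day 28 against day 2 in macrophages (1.38 ± 0.52, adjusted p = 0.127) was called in 3 of 13 (adjusted p from 0.00335 to 0.302). Monocytes had 0.567, 0.584 and 0 CPM in controls, 25.7, 19.2 and 21.9 CPM at day 2, 21.3, 17.7 and 23.8 CPM at day 14, and 32.1, 38.6 and 39.2 CPM at day 28. The 3 control monocyte libraries held 26, 22 and 0 counts, against 307 to 797 counts in each implant monocyte library. Mertk rose in implant monocytes by 5.84 ± 0.66 at day 2 (adjusted p = 2.1e-06), 5.75 ± 0.65 at day 14 (adjusted p = 1.5e-06) and 6.56 ± 0.67 at day 28 (adjusted p = 6.1e-07). Without control monocyte replicate C the log2 fold change was 5.21 at day 2 and 5.08 at day 14. Among implant monocytes no pair of days differed in a call. Like Mertk, the summed level of 8 macrophage genes was higher in implant than in control monocytes. It was 4429 to 4943 CPM at day 2, 5747 to 6704 CPM at day 14 and 4731 to 5869 CPM at day 28. In controls it was 2972 to 3792 CPM. Of its 8 genes, 5, 4 and 5 lay above all controls at these days, and 1, 1 and 0 below. The fibroblast sum given above was also higher, while Cx3cr1 was lower. Both sums were highest at day 14, and Mertk at day 28. Of the 10 neutrophil genes, 4, 6 and 7 lay below all control monocyte libraries at these days, and 6, 1 and 2 above. Among those below was Ngp, at 1108 CPM in controls and 7.46 CPM at day 2. The part of these transcripts in the Mertk and Stab1 results that rest on monocytes was not tested. These marker counts only describe the lists, because the share of all genes beyond the controls was not counted. For Mertk, the highest group means were those of control and day 28 macrophages, at 93.9 and 93.0 CPM. Day 14 macrophages, day 28 monocytes, day 2 macrophages, day 2 monocytes, day 14 monocytes and control monocytes followed in this order. Neighbours did not overlap between day 14 macrophages and day 28 monocytes, between day 2 macrophages and day 2 monocytes, or between day 14 and control monocytes.

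Gas6, the ligand with the strongest preference for AXL, had its highest levels in macrophages. Macrophages had 265 and 1376 CPM in controls, 16.0, 31.1 and 21.3 CPM at day 2, 85.6, 314 and 122 CPM at day 14, and 17.6, 8.26 and 61.6 CPM at day 28. The control libraries themselves lay far apart, and every library of days 2 and 28 was below both. Gas6 fell in macrophages at day 2 (−5.17 ± 0.90, adjusted p = 0.0005) and day 28 (−4.81 ± 0.88, adjusted p = 0.00107), and the day 14 difference was not called (adjusted p = 0.0962). Without control replicate B the log2 fold change was −3.56 at day 2 (adjusted p = 0.0146) and −3.13 at day 28 (adjusted p = 0.0482). Without control replicate A it was −5.98 at day 2 and −5.56 at day 28, and without day 28 replicate C it was −6.02 at day 28. Monocytes had 0.153, 0.239 and 0.568 CPM in controls, 1.49, 1.61 and 0.525 CPM at day 2, 2.49, 0.917 and 3.22 CPM at day 14, and 2.98, 9.76 and 1.72 CPM at day 28. Each monocyte library held between 7 and 200 Gas6 counts. On that low level Gas6 rose by 2.77 ± 0.89 at day 14 (adjusted p = 0.0187) and by 3.90 ± 0.89 at day 28 (adjusted p = 0.00384), calls that voom did not make (adjusted p = 0.212 and 0.115). The day 14 monocyte call was also lost without control replicate A or B or day 14 replicate C (adjusted p = 0.0849, 0.0623 and 0.0817). Without control replicate C the monocyte values were 3.38 at day 14 and 4.61 at day 28, and without day 28 replicate B the day 28 value was 2.85. The fibroblast sum was also lower in implant macrophages, at 5.97 to 115 CPM against 194 to 263 CPM in controls. Between days 14 and 28 its mean went from 59.7 to 68.8 CPM, while that of Gas6 went from 174 to 29.2 CPM. In monocytes the sum was 0.133 to 1.02 CPM in controls and 12.7 to 135 CPM at day 2. It was 626 to 1139 CPM at day 14 and 277 to 683 CPM at day 28. The part of these transcripts in the Gas6 results of both cell types was not tested.

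Pros1, the other TAM ligand and a coagulation inhibitor in plasma, was carried by both cell types. Macrophages had 299 and 259.7 CPM in controls, 51.2, 83.8 and 58.0 CPM at day 2, 131, 90.1 and 79.4 CPM at day 14, and 203, 189.8 and 86.3 CPM at day 28. Every implant macrophage library was below both controls, and the call was made at day 2 only (log2 fold change −2.12 ± 0.51, adjusted p = 0.00727), with adjusted p = 0.0776 at day 14 and 0.347 at day 28. Without control replicate A, which leaves 1 control library that is assumed to vary like the other groups, the day 2 call was lost (adjusted p = 0.0628). Monocytes had 69.9, 82.4 and 113 CPM in controls, 69.1, 103 and 176 CPM at day 2, 41.6, 49.3 and 17.4 CPM at day 14, and 21.9, 86.8 and 76.3 CPM at day 28. Pros1 was lower in day 14 monocytes than in control monocytes, without overlap (log2 fold change −1.29 ± 0.47, adjusted p = 0.0347). That call was lost without day 14 replicate C (adjusted p = 0.115) or control replicate C (adjusted p = 0.107). As given above, neutrophil and fibroblast transcripts also moved with the groups in both cell types. Their part in the Pros1 results was not tested.

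Mfge8, the integrin bridging protein, was the member that rose late in macrophages. Macrophages had 10.6 and 5.12 CPM in controls, 11.6, 7.70 and 10.5 CPM at day 2, 18.9, 13.5 and 43.7 CPM at day 14, and 135, 79.7 and 39.4 CPM at day 28. All libraries of days 14 and 28 lay above both controls. At day 28 Mfge8 rose by 3.44 ± 0.70 against controls (adjusted p = 0.00258) and by 3.09 ± 0.58 against day 2 (adjusted p = 0.00622), and the day 14 difference from controls was not called (adjusted p = 0.108). Without control replicate B the day 28 call was lost (adjusted p = 0.0661), and without control replicate A the log2 fold change was 4.06. Monocytes had 18.7, 22.6 and 31.0 CPM in controls, 19.6, 8.73 and 12.3 CPM at day 2, 11.6, 18.9 and 4.42 CPM at day 14, and 6.97, 18.6 and 16.0 CPM at day 28. No monocyte comparison of Mfge8 was called. The part of the neutrophil and fibroblast transcripts given above in the Mfge8 results was not tested.

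Timd4 exceeded 2 CPM in control macrophages and in no other group. It had 68.1 and 107 CPM there. Implant macrophages had 0.426, 0 and 1.93 CPM at day 2, 0.962, 0 and 1.66 CPM at day 14, and 1.80, 0 and 1.34 CPM at day 28. Summed over libraries these were 4608 counts in controls, 25 at day 2, 60 at day 14 and 77 at day 28, and no implant library approached the controls. Timd4 fell at day 2 (−7.04 ± 1.5, adjusted p = 0.00297), day 14 (−6.65 ± 1.44, adjusted p = 0.00531) and day 28 (−6.39 ± 1.42, adjusted p = 0.00544). The day 28 call was lost without control replicate B (adjusted p = 0.0601). Leaving out a single implant library moved the log2 fold change to between −8.79 and −6.32 at day 2 (replicates C and B), −7.53 and −6.06 at day 14 (C and B), and −7.01 and −5.80 at day 28 (A and B). In monocytes Timd4 had 1 count in controls, 10 at day 2, 1 at day 14 and 4 at day 28, summed over 3 libraries each. Day 2 over control monocytes this is a ratio of 24.4 with a 95% counting interval of 3.47 to 1057, which covers counting error only. Of these 10 counts, 9 were in 1 library. Neutrophil and fibroblast transcripts, given above, also differed between implant and control macrophages. Their part in the Timd4 results was not tested.

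Stab1, the scavenger receptor, moved in opposite directions in the 2 cell types. Macrophages had 928 and 599 CPM in controls, 161, 219 and 149.7 CPM at day 2, 203, 177 and 107 CPM at day 14, and 95.9, 172 and 106 CPM at day 28. Every implant library was below both controls. Summed over the 8 macrophage genes, implant macrophages held 5444 to 7497 CPM, against 9418 to 9611 CPM in controls. Of these 8 genes, 6, 4 and 4 lay below both controls at days 2, 14 and 28, and 2, 2 and 1 above. Their part in the Stab1 results of macrophages was not tested, and the share of all genes beyond the controls was not counted. Stab1 fell in macrophages at day 2 (−2.11 ± 0.46, adjusted p = 0.00347), day 14 (−2.23 ± 0.46, adjusted p = 0.00361) and day 28 (−2.61 ± 0.46, adjusted p = 0.000783). Without control replicate A the calls at day 2 (adjusted p = 0.0628) and day 14 (adjusted p = 0.0852) were lost. Monocytes had 1.57, 1.17 and 0.189 CPM in controls, 64.1, 69.8 and 81.3 CPM at day 2, 119, 115 and 136 CPM at day 14, and 116, 79.5 and 128 CPM at day 28. Stab1 rose in implant monocytes by 6.19 ± 0.53 at day 2 (adjusted p = 4.5e-08), 6.97 ± 0.54 at day 14 (adjusted p = 9.0e-09) and 6.78 ± 0.54 at day 28 (adjusted p = 1.5e-08). By mean level control macrophages (763 CPM) came first and control monocytes (0.976 CPM) last, with the 6 implant groups between them at 71.7 to 177 CPM, and among those 6, neighbours overlapped.

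**Figure D3:**
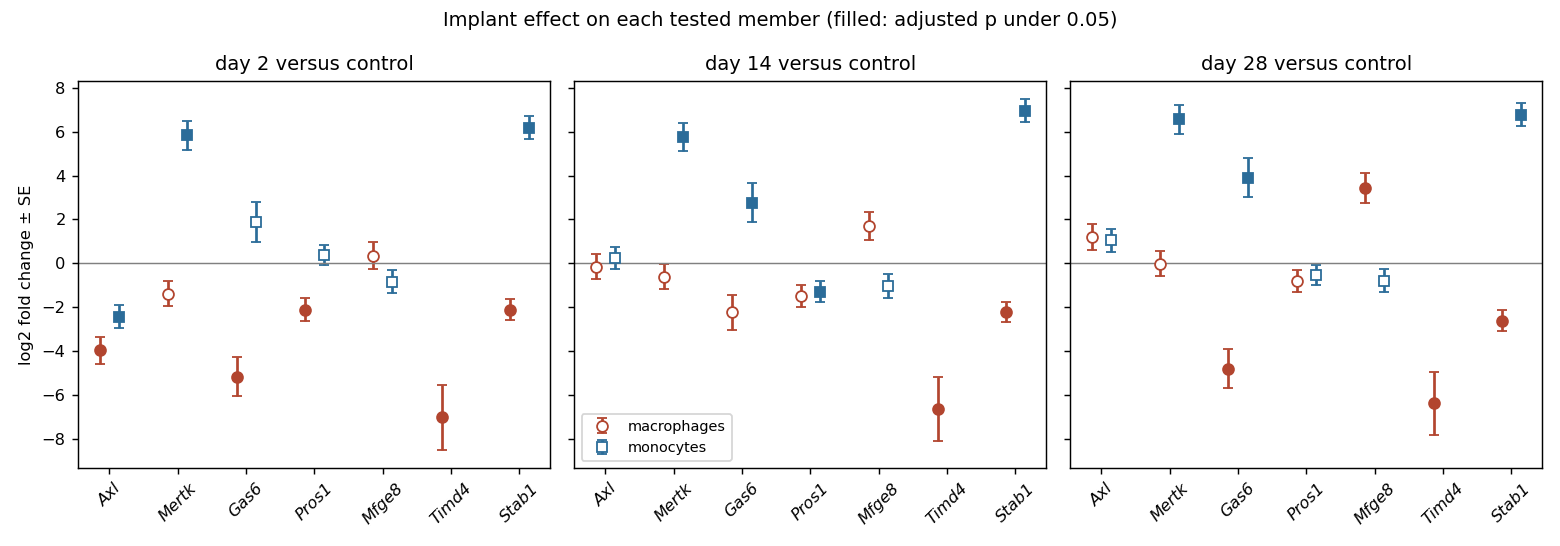
Log2 fold change against controls (vertical axis, ± SE from the edgeR model) of each tested member at days 2, 14 and 28, macrophages as red circles and monocytes as blue squares, filled where called. Timd4 is drawn for macrophages only, because control monocytes held 1 count. Mertk and Stab1 lie above 5 in monocytes at all 3 days, while the macrophage points of Stab1 lie below −2.

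Between implant days few members differed. In macrophages 1 of 7 was called at day 14 against day 2 (Axl, where 0.474% of all genes were called) and 2 of 7 at day 28 against day 2 (Axl and Mfge8, 4.26%). For day 28 against day 14 in macrophages edgeR called 0 of 7 (0.00615%), with 3 of 7 at an unadjusted p under 0.05, 0 called by DESeq2 and 2 by voom. In monocytes 1 of 7 was called at day 14 against day 2 (Axl, 0.726%) and 1 of 7 at day 28 against day 2 (Axl, 0.867%). Day 28 against day 14 in monocytes gave 0 of 7 by edgeR (0.720%), 0 of 7 at an unadjusted p under 0.05, and 0 by DESeq2 and by voom.

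Between the cell types, 5 of 7 members were higher in control macrophages than in control monocytes, where 12.5% of all genes were called, and 1 of 7 was called at each implant day. Gas6 was higher by 11.30 ± 1.16 (820 against 0.320 CPM, adjusted p = 8.5e-07), Stab1 by 9.60 ± 0.61 (763 against 0.976 CPM, adjusted p = 1.5e-09), Mertk by 7.92 ± 0.72 (93.9 against 0.384 CPM, adjusted p = 2.1e-07) and Pros1 by 1.66 ± 0.51 (279 against 88.5 CPM, adjusted p = 0.035). Timd4 was also called (adjusted p = 0.000124), with 4608 counts in control macrophages against 1 in control monocytes, a ratio per corrected total of 11910 with a 95% counting interval of 2136 to 470400. The Pros1 call was lost when any of the 5 control libraries was left out (adjusted p between 0.0631 and 0.169). At day 2 Gas6 alone was called (1 of 7, 3.42% of all genes), 22.8 CPM in macrophages against 1.21 CPM in monocytes (log2 fold change 4.25 ± 0.88, adjusted p = 0.00816), and without day 2 monocyte replicate C it was not (adjusted p = 0.0564). At day 14 Gas6 was again the member called (1 of 7, 9.37%), 174 CPM against 2.21 CPM (6.29 ± 0.93, adjusted p = 0.000546). At day 28 it was Mfge8 (1 of 7, 2.52%), 84.7 CPM in macrophages against 13.9 CPM in monocytes (2.61 ± 0.57, adjusted p = 0.019). The Mfge8 call was lost in the fit to those 2 groups alone (adjusted p = 0.12), and without day 28 macrophage replicate A or day 28 monocyte replicate A or C (adjusted p between 0.0723 and 0.117). Members that were not called could still lie apart. Mertk was higher in macrophages without overlap at days 2, 14 and 28 (adjusted p = 0.571, 0.0659 and 0.178 in edgeR). So were Stab1 at day 2 (adjusted p = 0.102) and Pros1 at day 14 (adjusted p = 0.0517).

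The difference between the cell types in the implant effect was tested as an interaction, macrophage effect minus monocyte effect. At day 2 it was called for 5 of 7 members (Mertk, Gas6, Stab1, Timd4 and Pros1), where 3.78% of all genes were called. At day 14 it was called for 4 of 7 (Mertk, Gas6, Stab1 and Mfge8, 7.55%) and at day 28 for the same 4 genes (5.77%). Stab1 had the largest values among those with more than 3 counts in every group, −8.30 ± 0.68 at day 2 (adjusted p = 1.8e-07), −9.20 ± 0.70 at day 14 (adjusted p = 4.2e-08) and −9.39 ± 0.70 at day 28 (adjusted p = 3.7e-08). Mertk had −7.23 ± 0.85, −6.36 ± 0.84 and −6.58 ± 0.84 on the same days. Mfge8 went the other way, 2.75 ± 0.84 at day 14 (adjusted p = 0.0492) and 4.23 ± 0.86 at day 28 (adjusted p = 0.00397), its means being higher in implant than in control macrophages (25.4 and 84.7 against 7.85 CPM) and lower in implant than in control monocytes (11.6 and 13.9 against 24.1 CPM). The interaction of Axl was not called at any day (adjusted p = 0.361, 0.834 and 0.987).

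The members were also compared within each library. The log2 ratio of Axl to Mertk, on (CPM + 1) values, averaged 0.66 ± 0.59 in control macrophages (SD, n = 2), and −1.79 ± 1.38 at day 2, 1.22 ± 0.28 at day 14 and 1.98 ± 0.16 at day 28 (SD, n = 3 each). In monocytes it averaged 5.92 ± 1.02 in controls, where Mertk was near 0, and −0.41 ± 0.25 at day 2, 2.25 ± 0.50 at day 14 and 2.24 ± 0.58 at day 28 (SD, n = 3 each). Mertk thus exceeded Axl in CPM in every day 2 library of both cell types and in no other library. Over the implant days the ratio was lower in macrophages, 0.47 ± 1.87 against 1.36 ± 1.39 in monocytes (SD, n = 9 each, difference −0.89). A two-sided exact permutation test of cell type within day gave p = 0.00575 (adjusted over the 2 ratios tested, 0.00575). Without day 14 the difference was −0.82 (permutation p = 0.075). Leaving out day 2 macrophage replicate A, B or C, or day 28 monocyte replicate A or B, also took the permutation p above 0.05, to between 0.0708 and 0.23. The difference is of means pooled over the days, so leaving out 1 library also unbalances the days. Differences between days then enter the value and its p, and their part was not separated.

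The log2 ratio of Gas6 to Pros1 did not overlap between the cell types in controls or at days 2 and 14. In controls it averaged 1.11 ± 1.82 in macrophages (SD, n = 2) and −6.07 ± 0.12 in monocytes (SD, n = 3). Gas6 in control monocytes was 0.153 to 0.568 CPM, below the pseudocount of 1 CPM, so that value and its SD mostly reflect Pros1. In implant monocytes Gas6 was 0.525 to 9.76 CPM. The ratio averaged −1.48 ± 0.13 in macrophages and −5.66 ± 1.07 in monocytes at day 2, and 0.60 ± 1.20 in macrophages and −3.48 ± 1.30 in monocytes at day 14 (SD, n = 3 each). At day 28 the values were −2.76 ± 2.03 in macrophages and −3.46 ± 1.21 in monocytes, and they overlapped. Over the implant days the mean was −1.21 ± 1.88 in macrophages and −4.20 ± 1.51 in monocytes (SD, n = 9 each), a difference of 2.99 (two-sided exact permutation test within day, p = 0.00225, adjusted 0.0045). The difference was 2.39 without day 2 (permutation p = 0.045), 2.44 without day 14 (permutation p = 0.035) and 4.13 without day 28 (permutation p = 0.005), and 3.51 with a pseudocount of 0.1 CPM.

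**Figure D4:**
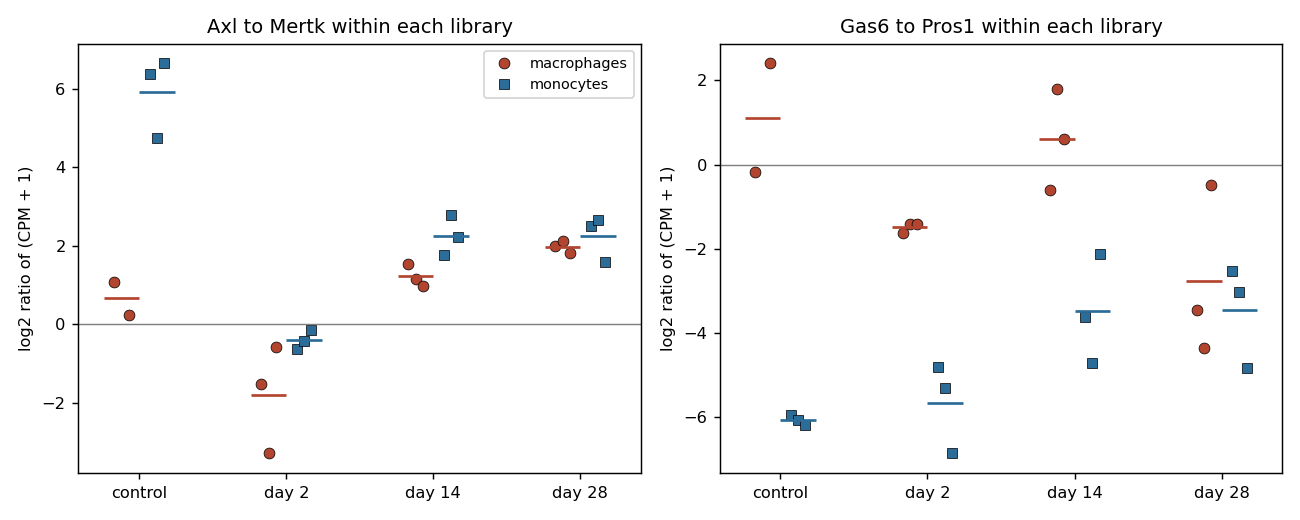
Log2 ratio of Axl to Mertk (left) and of Gas6 to Pros1 (right) on (CPM + 1) values in each library, by time, macrophages as red circles and monocytes as blue squares, with lines at group means. The Axl to Mertk ratio is below 0 in all 6 day 2 libraries, and the Gas6 to Pros1 ratio of day 2 and day 14 macrophages lies above that of monocytes.

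Genes with the most similar pattern were sought by the Pearson correlation of the 8 group means of log2(CPM + 1), among 7050 tested genes whose mean over libraries reached 10 CPM. These correlations are descriptions over 8 points that share libraries. Mertk was most like C1qa (r = 0.987) and C1qc (0.982), which encode chains of the complement opsonin C1q, and Rab3il1 (0.979). Stab1 was most like Prune2 (0.971), the transcription factor gene Maf (0.967) and C1qb (0.967). Gas6 was most like Lyve1 (0.983), a hyaluronan receptor of tissue macrophages and lymphatic vessels, Rcn3 (0.981) and Scamp5 (0.980). Timd4 was most like the lectin gene Cd209g (0.987), Grap (0.975) and the sialic acid receptor gene Siglec1 (0.970). Among the genes most like Pros1 were Coq6 (0.961) and Tbc1d14 (0.941). Mfge8 was most like Def8 (0.972), Alg11 (0.942) and Slc39a11 (0.939). Axl had the lowest leading values, with Hivep3 (0.928), S1pr2 (0.921) and Abcb1b (0.918).

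Other genes of dead cell uptake were followed in a list of 75, of which 70 were tested. They comprise receptors, bridging proteins and opsonins, find-me and restraint receptors, engulfment machinery, digestion and lipid handling, regulators, and receptor shedding. The list was chosen with earlier results of these data known, so the shares called describe it and do not test it. In macrophages 20 were higher and 7 lower at day 2, 22 higher and 2 lower at day 14, and 22 higher and 2 lower at day 28, so that 38.6%, 34.3% and 34.3% were called, beside 17.2%, 8.21% and 10.6% of all tested genes. The median log2 fold change of the list was −0.05, 0.40 and 0.71 at these days, against −0.16, −0.08 and −0.04 over all tested genes. The opsonin and bridging group of 11 had 5 members higher and 3 lower at day 2, 5 higher and 1 lower at day 14, and 6 higher and 1 lower at day 28. Among those higher was Anxa1, which encodes the phospholipid binding protein annexin A1 (2515, 2246 and 2643 CPM at days 2, 14 and 28, against 278 CPM in controls). Cd14, a receptor for lipopolysaccharide that also binds dying cells, was higher at all 3 days (7629, 4899 and 3716 CPM, against 442 CPM in controls). The nucleotide receptor gene P2ry2 was higher at day 2, at 26.3 CPM, against 0.395 CPM in controls. C4b, a complement gene, was lower at day 2, at 4.34 CPM, against 821 CPM in controls.

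In monocytes 24 of the 70 were higher and 17 lower at day 2, 27 and 20 at day 14, and 26 and 8 at day 28, so that 58.6%, 67.1% and 48.6% were called, beside 27.0%, 37.7% and 18.2% of all tested genes. The list's median log2 fold change was 0.15, 0.36 and 0.42, against 0.00, −0.03 and 0.00 over all tested genes. The C1q genes rose at the same days as Mertk and Stab1. C1qa had 203, 244 and 356 CPM at days 2, 14 and 28, against 1.25 CPM in control monocytes, and log2 fold changes of 7.34 ± 0.40, 7.61 ± 0.41 and 8.15 ± 0.42 (adjusted p = 1.1e-10, 5.9e-11 and 3.4e-11). Engulfment machinery went the other way, with 6 of 12 tested members lower at day 2 and 1 higher, 8 lower and 1 higher at day 14, and 4 lower and 0 higher at day 28. Between days, Nr1h3, which encodes the sterol-sensing receptor LXR-alpha, and its cholesterol exporter target Abcg1 were higher at day 14 than at day 2 (77.8 against 15.9 CPM, and 149 against 46.1 CPM).

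Between the cell types C1qa had the smallest adjusted p of the list in controls and at days 2 and 14, and Cd36 at day 28. In controls C1qa had 2368 CPM in macrophages against 1.25 CPM in monocytes. There 13 of the 70 were higher and 14 lower in macrophages, so that 38.6% were called, beside 12.5% of all tested genes. At day 14 C1qa had 1449.5 CPM in macrophages against 244 CPM in monocytes (log2 fold change 2.57 ± 0.32, adjusted p = 9.0e-05), while Mertk, 61.6 against 20.9 CPM, was not called (adjusted p = 0.0659). Cd36, a scavenger receptor that takes part in uptake, was higher in macrophages at day 2 (1177 against 123 CPM) and at day 28 (2786.5 against 333 CPM). The implant effect on C1qa differed between the cell types by −8.82 ± 0.50 at day 2, −8.32 ± 0.50 at day 14 and −9.06 ± 0.51 at day 28, and that on Maf by −3.85 ± 0.51, −4.88 ± 0.52 and −3.98 ± 0.51.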

How the data were processed

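The submitters' processing notes name bcl2fastq, STAR 2.4.1d, featureCounts, Subread 1.5.1 and the build GRCm38. Which annotation release and strand setting were used, and how reads matching several places were treated, is not stated. RNA was extracted with RNeasy and amplified with SMART-Seq v4 before Nextera XT, per the labels' protocols. The authors deposited whole-number counts per gene and library, without normalization. The members, the list of other genes and the marker lists were chosen with earlier results of these data known. GENCODE M21 supplied gene bounds, exon lengths and the symbols of 47224 of the 47729 entries, and RefSeq supplied the promoter sequences on GRCm38.p6. No pair of libraries had identical counts, and mitochondrially encoded genes took 0.511% to 4.35% of counts.

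In edgeR 4.0.16 under R 4.3.3, filterByExpr by group kept 16260 genes, and TMM set the scale. A robust quasi-likelihood model over all 23 libraries in 8 groups was tested in 19 contrasts, with Benjamini-Hochberg adjustment over every tested gene and a threshold of 0.05. Log2 fold changes use a prior count of 0.125, and their SE is the absolute value over the square root of F. CPM and RPKM were computed from the deposited counts. With 1 to 3 counts in a group, a ratio with an exact counting interval (95%) is given, which covers counting error only. Ratios of members used a pseudocount of 1 CPM and an exact permutation of cell type within day over 8000 arrangements. The procedure was tested on simulated data. Its criteria for passing were changed after the first result was seen, and only a minority of the known changes was called in the comparison it covered (macrophages at day 2 against controls), so a member that was not called may still differ. As alternatives, RLE scaling, no filter on low counts, DESeq2 1.42.0, voom with quality weights in limma 3.58.1, a fit to the compared groups alone, the replicate letter as a block, a larger prior count of 2, and each library left out were run, and for the ratios a pseudocount of 0.1 CPM and each day left out. All 8 members are named, with up to 4 genes of the other list per comparison by smallest adjusted p and the 3 most similar genes per tested member, of which 1 is not reported here. Genes of the marker lists are named where they describe a group.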

Additional observations from a re-analysis of the deposited data

Results flagged for a closer look

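For 13 combinations of member and day the implant effect differed between the cell types in edgeR's interaction test, and each is given as macrophage effect minus monocyte effect on the log2 scale. At day 2 the values were −7.23 for Mertk, −7.05 for Gas6, −8.30 for Stab1, −10.94 for Timd4 and −2.51 for Pros1. At day 14 they were −6.36 for Mertk, 2.75 for Mfge8, −5.01 for Gas6 and −9.20 for Stab1. At day 28 they were −6.58 for Mertk, 4.23 for Mfge8, −8.71 for Gas6 and −9.39 for Stab1. Mertk and Stab1 were past the threshold at all 3 days in every alternative that was run. The Timd4 value rests on 1 count in control monocytes and 10 in day 2 monocytes, depends on the prior count, and was not called without day 2 monocyte replicate B (adjusted p = 0.566). The Pros1 value was lost in 11 of its alternatives and the day 14 Mfge8 value in 12. The day 14 Gas6 value was lost with voom (adjusted p = 0.105) and without control macrophage replicate B (adjusted p = 0.136), and the day 28 Mfge8 value without control macrophage replicate B (adjusted p = 0.0532).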

How the results depend on the processing

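Of 47 member comparisons called, 30 were called in every alternative run. None of the 80 member comparisons that were called in at least 1 fit reversed its direction. The prior count of 2, which is counted among the alternatives, moves fold changes only and cannot change a call. Leaving out 1 library at a time moved 53 of 331 values of called comparisons by more than 1.5-fold. Without the low count filter, the number of members called was 5 instead of 2 for macrophages at day 14 against controls, 5 instead of 3 for monocytes at day 2 against controls, 3 instead of 1 for macrophages at day 14 against day 2, 3 instead of 0 at day 28 against day 14, and 4 instead of 2 at day 28 against day 2. For monocytes it was 2 instead of 1 at day 14 against day 2, 1 instead of 0 at day 28 against day 14, and 2 instead of 1 at day 28 against day 2. For macrophages against monocytes it was 2 at day 2, 5 at day 14 and 6 at day 28, instead of 1 each. Voom and DESeq2 each called 4 for macrophages at day 14 against controls and 2 at day 14 against day 2, 4 at day 28 against day 2, 2 for monocytes at day 14 against day 2, and 2 at day 2 and 3 at day 14 between the cell types. At day 28 between the cell types voom called 3 and DESeq2 4, and voom called 2 for macrophages at day 28 against day 14. With only the groups compared, 2 were called for macrophages at day 14 against day 2, and between the cell types 2 at day 2, 3 at day 14 and 0 at day 28. The cause of these changes was not tested.

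Leaving out single libraries gave between 3 and 5 members called for macrophages at day 2 against controls, between 1 and 2 at day 14 and between 2 and 4 at day 28. For monocytes against controls it gave between 2 and 5 at day 14, and between 0 and 1 at day 14 against day 2. Between the cell types it gave between 0 and 1 at day 2 and between 0 and 2 at day 28. For the interactions it gave between 3 and 5 at day 2 and between 2 and 4 at day 14. For the Gas6 to Pros1 ratio it gave differences between 2.61 and 3.38. For the Axl to Mertk ratio it gave differences between −1.14 and −0.42, and without day 14 the difference was −0.82. Both ratio differences are of means pooled over the days. Leaving out 1 library therefore also unbalances the days, and differences between days enter these ranges. Without a control macrophage library 1 is left, which is assumed to vary like the other groups.

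Same-lettered libraries of different groups did not deviate together (77 pairs, r between −0.228 and 0.237, median −0.012, 4 above 0.1), so the letters were not taken to pair samples. With the replicate block 4 instead of 5 members were called between the cell types in controls, 4 instead of 5 for the day 2 interaction and 3 instead of 4 for the day 14 interaction, and the other counts did not change. The block gave permutation p = 0.00781 for the Axl to Mertk ratio and 0.0156 for the Gas6 to Pros1 ratio.

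Over all genes the number called moved widely, and the shares of all genes given beside the members move with it. Genes called, with the range over the alternatives, were 2797 (826 to 4671) at day 2, 1335 (417 to 2437) at day 14 and 1717 (689 to 3100) at day 28 for macrophages against controls, and 4389 (2724 to 7308), 6132 (4635 to 7696) and 2965 (1932 to 4237) for monocytes. They were 77 (29 to 685) at day 14 against day 2, 1 (0 to 252) at day 28 against day 14 and 692 (137 to 2997) at day 28 against day 2 for macrophages, and 118 (0 to 741), 117 (0 to 1560) and 141 (18 to 1089) for monocytes. Between the cell types they were 2034 (1111 to 3513) in controls, 556 (269 to 1625) at day 2, 1523 (635 to 2917) at day 14 and 409 (1 to 1323) at day 28, and for the interactions 615 (380 to 1473), 1227 (573 to 2658) and 939 (492 to 1616) at the 3 days. Depth limits Timd4 and Gas6 in monocytes and Tyro3 in all groups, where the library of the lowest total needs 0.362 CPM for 3 counts.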

Other observations

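Timd4 had 0 counts in replicate B of macrophages at days 2, 14 and 28, while replicates A and C of the same days held between 9 and 39 counts. The totals of the replicate B libraries were 25741009, 25230923 and 28193280 counts, so a count of 0 there allows up to 0.123, 0.116 and 0.106 CPM on the totals corrected by TMM. The labels do not describe what the letters stand for.

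Control macrophage replicates A and B differed most in Gas6, at 265 and 1376 CPM, and in Axl, at 248 and 84.4 CPM, in opposite directions. Stab1 (928 and 599 CPM), Mertk (117 and 71.2 CPM) and Pros1 (299 and 259.7 CPM) were higher in A, and Timd4 (68.1 and 107 CPM) was higher in B. Their totals were 10898529 and 26053997 counts.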
